A study of Mus musculus with 8 samples.

Results

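The genes of the oxidative phosphorylation machinery were followed in plasmacytoid dendritic cells (pDC) sorted as Sca-1- or Sca-1+. The members are all genes on the arrays whose names begin with Nduf followed by a, b, c, s or v and a number, with Uqcr, with Cox followed by a digit from 4 to 8, or with Atp5, and the genes Sdha, Sdhb, Sdhc and Sdhd. Cox6a2 was left out by that rule. It found 84 genes among the 34787 genes and transcripts on the arrays, 37 of them named for complex I, 4 for complex II, 8 for complex III, 18 for complex IV and 17 for complex V. Each gene was read from 1 probe, the one with the brightest mean signal, and the 80 genes whose probe was marked well above background on 4 arrays or more were tested. Undetected in this sense on all 8 arrays were Ndufa4l2, Cox7b2, Cox8b and Cox8c, all of them isoforms known from restricted tissues or conditions.

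Oxidative phosphorylation couples the oxidation of fuels to ATP production in the inner mitochondrial membrane. Complex I takes electrons from NADH and complex II, which is also an enzyme of the TCA cycle, takes them from succinate. Complex III passes them to cytochrome c, complex IV hands them to oxygen, and complex V uses the resulting proton gradient to make ATP. Most subunits are encoded in the nucleus, as all members here are, while a small set of core subunits of complexes I, III, IV and V is encoded by the mitochondrial DNA. In dendritic cells, mitochondrial respiration is known as an energy source whose use changes with activation.

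The series holds 4 arrays of Sca-1- and 4 arrays of Sca-1+ pDC, all from bone marrow precursors of female BALB/c mice differentiated in culture with Flt3 ligand, with the age of the mice, the culture time and any pooling not given in the sources used here. Sca-1 is the product of Ly6a, a surface protein often used to mark immature blood cells, and the title of the series asks whether it separates developmental stages of pDC. The cells were isolated by magnetic and flow cytometric sorting, the labels name no stimulus, and the RNA was amplified before labelling. The labels do not tie replicates 1 to 4 to different mice or cultures, and p-values cover only the spread among these arrays, which could be technical. The number of arrays limits the precision.

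A level here is the log2 processed signal of a probe minus the 75th percentile of its array, and a difference is the Sca-1+ mean minus the Sca-1- mean on that scale. The sort marker Ly6a had levels of 3.14, 3.10, 2.67 and 2.21 in Sca-1- replicates 1 to 4 and of 7.38, 7.82, 7.35 and 7.17 in Sca-1+ replicates 1 to 4, which is the order the labels give. All 14 pDC markers were well above background on all 8 arrays. Markers of other blood cells were in part detected. Of the 8 B cell genes, Cd79a, Cd79b and Blk were well above background on all 8 arrays, Cd79b at a mean level of 2.29 in Sca-1- and 2.47 in Sca-1+, while Ms4a1, Pax5 and Igll1 were so on none. Of the 10 T and NK cell genes, Cd3e, Cd4, Thy1 and Prf1 were well above background on all 8, Cd3e at 2.18 and 2.36, while Cd3d, Cd3g, Ncr1 and Klrb1c were so on none. The 75th percentile of signal lay between 152 and 434, and both arrays of replicate 4 were the brightest and had another scan protocol name in their headers. Their probe levels stood apart from replicates 1 to 3 in both groups, and results that rest on replicate 4 are therefore also given without it. Sca-1- pDC had higher levels of cell cycle genes, with 25 of 30 called and a median difference of -2.03. Mki67, a marker of cycling cells, had levels of 4.68 to 5.69 in Sca-1- and 2.89 to 3.59 in Sca-1+ samples.

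No oxidative phosphorylation gene passed the test between Sca-1- and Sca-1+ pDC, yet nearly all of them lay slightly on the same side. In the unpaired limma fit, 0 of the 80 tested genes had an adjusted p under 0.05, beside 1.75% of all 19252 tested genes, 1.62% lower and 0.125% higher in Sca-1+. The difference was negative for 74 of 80 genes (92.5%), whereas 44.7% of all tested genes had a negative difference. Among all tested genes it was negative for 57.0% in the brightest 10% and 53.6% in the next 10%, where most members lay. The members' median difference was -0.15, a median level 1.11-fold lower in Sca-1+, with quartiles of -0.21 and -0.09, and the median over all tested genes was 0.03. The median standard error (SE) of the members in that fit was 0.17, similar in size to their median difference. A few single differences were well above their errors, among them Cox7a1 at -1.28 ± 0.30 SE and Atp5f1 at -0.35 ± 0.12 SE. At an unadjusted p under 0.05, 5 members were lower and 0 higher in Sca-1+, beside 5.92% of all tested genes lower and 3.12% higher. That share of members, like the count of calls, was close to the background. In bulk RNA, fewer cells of a type and less RNA per cell cannot be told apart.

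Same-numbered arrays of the groups shared a slide, and the comparison within slides gave the same direction with smaller errors. With the slide as a block, 1 of 80 members was called, Cox7a1, beside 6.38% of all tested genes, 4.22% lower and 2.17% higher in Sca-1+. At an unadjusted p under 0.05 in that blocked fit, 20 of 80 members were lower and 0 higher, beside 11.9% of all tested genes lower and 12.5% higher. Unlike in the unpaired fit, the share of members lower at that threshold was thus above that of all tested genes. On every one of the 4 slides, 44 of the 80 genes were lower in the Sca-1+ sample, or 55%, beside 18% of all tested genes. No member was higher on all 4 slides, beside 18.3% of all tested genes. The members' median difference within slides 1 to 4 was -0.04, -0.31, -0.15 and -0.10, and that of all tested genes was 0.07, -0.04, 0.02 and 0.01. Slide 2 thus had the largest shift and slide 1 the smallest. The overall median came to -0.17 without both arrays of replicate 4, with 73 of 80 genes negative. Without both arrays of replicate 2 it was -0.10, with 65 negative. Leaving out 1 array, which leaves its slide partner unmatched, could move the median further. It came to -0.06 with 57 genes negative without Sca-1- replicate 2. Without Sca-1+ replicate 4 it was -0.06 with 58 negative, and without Sca-1- replicate 4 it was -0.26 with 75 negative.

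**Figure D1:**
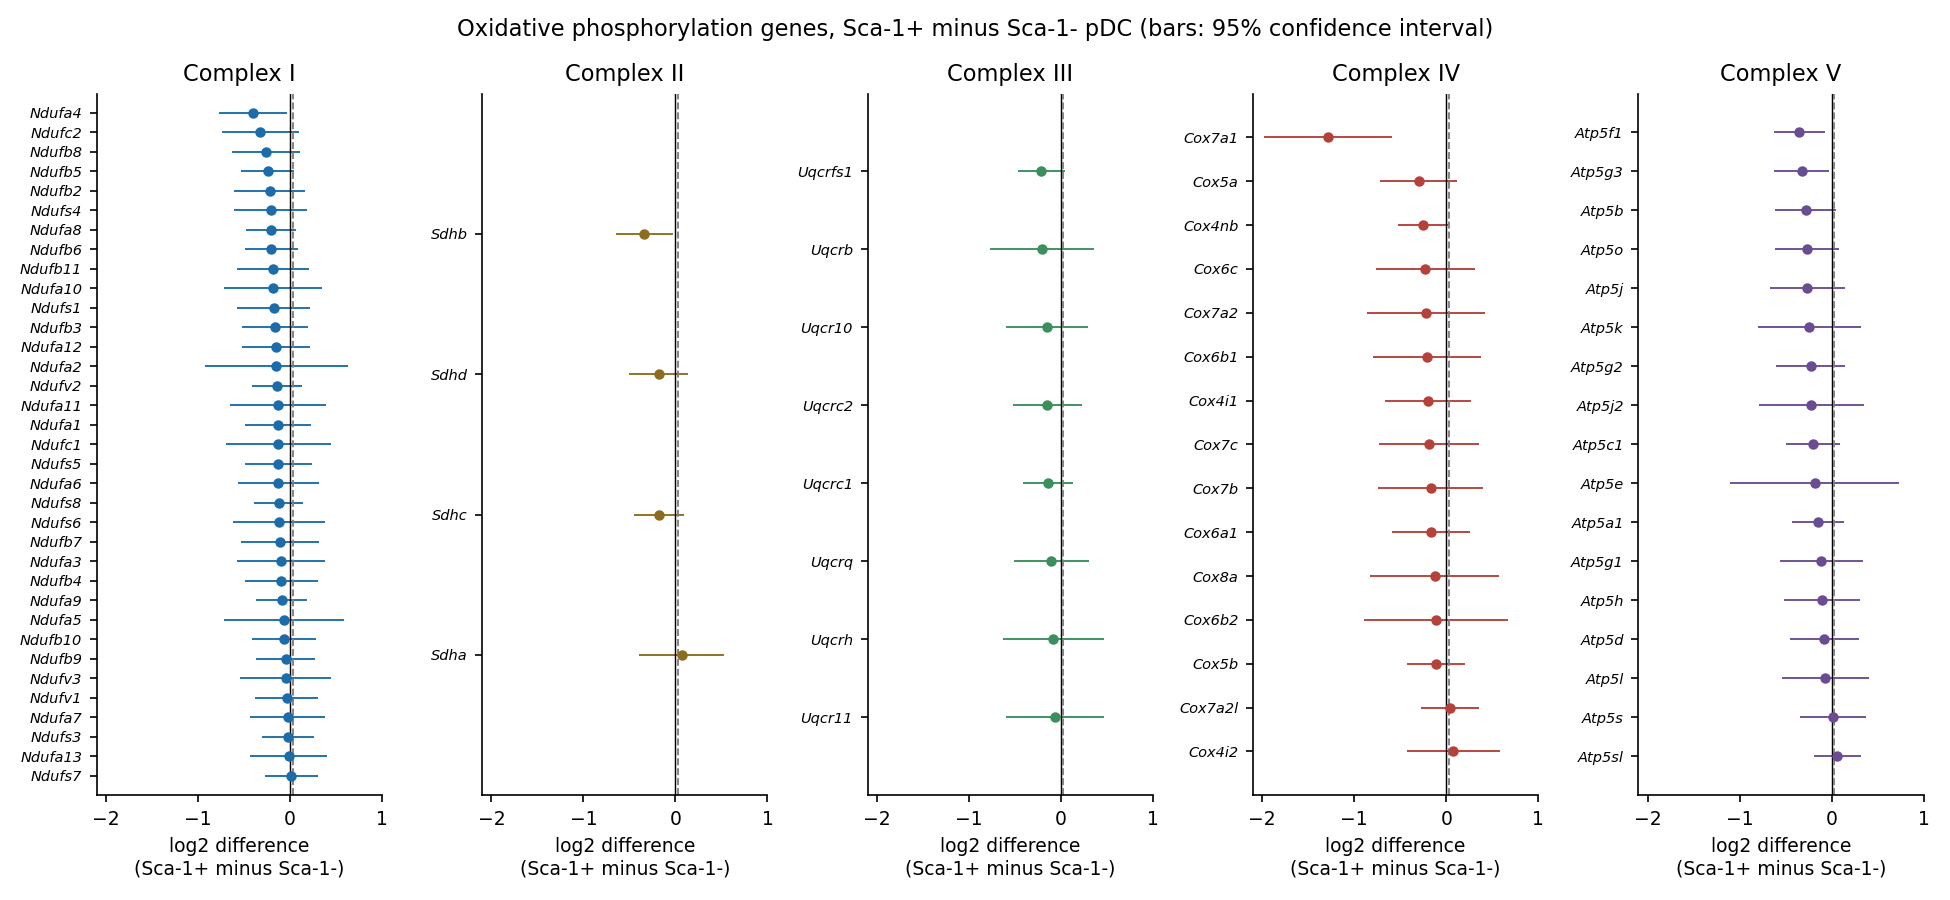
Log2 difference in level (Sca-1+ minus Sca-1-) of the tested genes by complex, 1 of complex I not shown, with 95% confidence intervals from the unpaired limma fit. The solid line marks 0 and the dashed line the median of all tested genes, 0.03; nearly all points lie left of 0 and most intervals cross it, with Cox7a1 farthest left at -1.28.

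The summed linear signal of the 84 probes gave the same order without scaling to the 75th percentile. It made up 1.22%, 1.24%, 1.17% and 1.25% of all non-control signal on the arrays of Sca-1- replicates 1 to 4. On the arrays of Sca-1+ replicates 1 to 4 it made up 1.09%, 1.10%, 1.08% and 1.15%. The groups did not overlap, and Sca-1+ was the lower on each slide. No test is given for this sum, which is carried by the brightest probes. The members' probes are bright, and 47 of 80 lay in the brightest 10% of tested probes and 24 in the next 10%. Over all genes of those brightness classes the median difference was -0.03 and -0.02, and over the members in them it was -0.13 and -0.18.

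**Figure D2:**
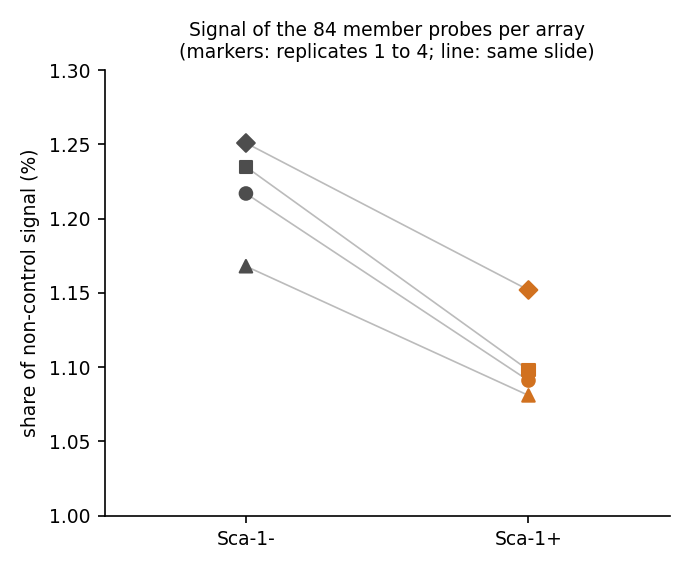
Share of the summed linear signal of all non-control spots that fell on the 84 member probes, in percent, for each array, with markers for replicates 1 to 4 and lines joining arrays of a slide. The vertical axis starts at 1.00%; the 4 Sca-1- arrays sit between 1.17% and 1.25% and the 4 Sca-1+ arrays between 1.08% and 1.15%.

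By complex, the median difference was -0.13 for complex I (35 of 36 tested genes negative), -0.18 for complex II (3 of 4), -0.14 for complex III (8 of 8), -0.19 for complex IV (13 of 15) and -0.20 for complex V (15 of 17). The complexes thus lay close together, and the spread between slides within a complex was larger than the spread between complexes. Within slides 1 to 4 the median for complex I was -0.04, -0.30, -0.11 and -0.09. For complex V it was -0.07, -0.33, -0.19 and -0.13, and for complex III -0.06, -0.26, -0.14 and -0.08. Complex IV had a median of 0.02 on slide 1 and of -0.38, -0.18 and -0.15 on slides 2 to 4. Complex II ran in another order, with -0.34, -0.09, -0.17 and -0.09. It has only 4 members. Single arrays moved these medians: complex I came to -0.04 without Sca-1- replicate 2, complex IV to -0.36 without Sca-1- replicate 4, and complexes III and V to -0.034 and -0.070 without Sca-1+ replicate 4.

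**Figure D3:**
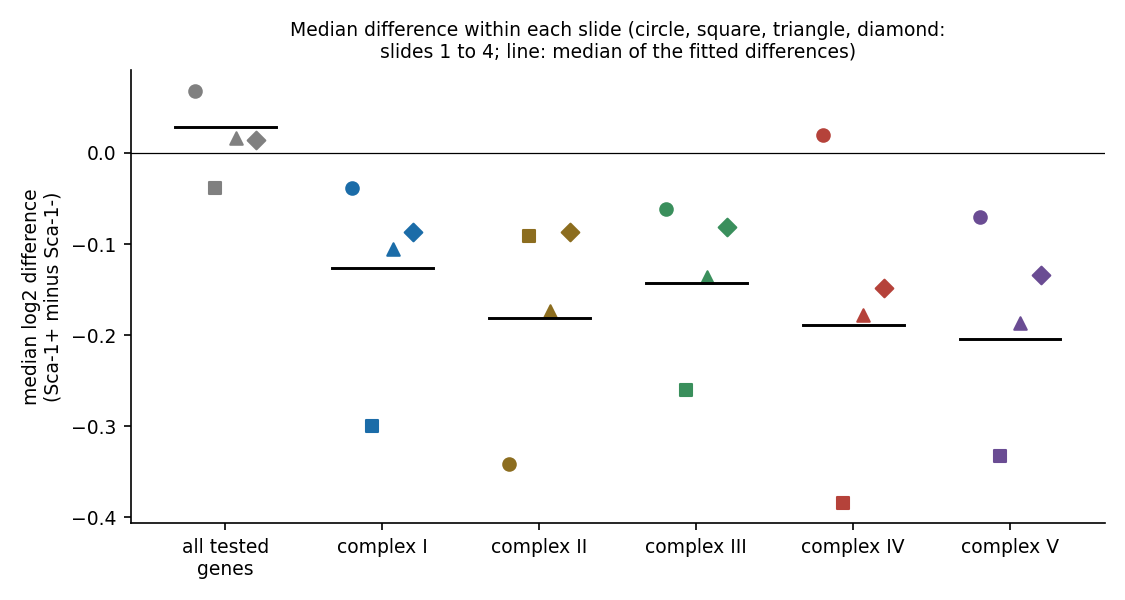
Median log2 difference (Sca-1+ minus Sca-1-) over all tested genes and over the tested genes of each complex, within each of the 4 slides (markers) and from the fit over all arrays (lines). All complex medians lie below 0 except that of complex IV on slide 1, at 0.02, and slide 2 is the lowest for every complex except II.

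In complex I, the 7 core subunits of the matrix arm had a smaller median difference than the accessory subunits around them. The core median was -0.04, with 6 of 7 negative, and the accessory median was -0.13, with 28 of 28 negative; the difference between these groups was not tested. Ndufv1, of the NADH-binding part, was near 0 at -0.04 ± 0.15 SE and turned positive under quantile normalization. Ndufs1, the large iron-sulfur subunit, had levels of 4.20, 4.13, 4.09 and 4.54 in Sca-1- replicates 1 to 4 and of 3.95, 3.90, 3.96 and 4.44 in Sca-1+ replicates 1 to 4. Replicate 4 was the highest in both groups, and the groups overlapped. Its difference was -0.18 ± 0.17 SE. The accessory subunits with the smallest p-values were Ndufb5, Ndufc2, Ndufa8, Ndufb8 and Ndufb6, with differences between -0.32 and -0.20.

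Ndufc2, an accessory subunit of the membrane arm, had levels of 4.91, 5.11, 4.98 and 4.47 in Sca-1- replicates 1 to 4. In Sca-1+ replicates 1 to 4 it had 4.49, 4.83, 4.57 and 4.28. Sca-1+ was the lower on each slide, by 0.42, 0.27, 0.42 and 0.19, but the groups overlapped because Sca-1- replicate 4 was low. The difference was -0.32 ± 0.18 SE, with an adjusted p of 0.758 in the unpaired limma fit and of 0.0768 with the slide as a block, the lowest of 22 alternatives. Ndufa8, whose protein is imported into the intermembrane space, had 3.37, 3.41, 3.20 and 3.41 in Sca-1- and 3.19, 3.13, 3.00 and 3.26 in Sca-1+ samples. Its difference of -0.21 ± 0.12 SE is close to that of Ndufb5 (-0.24 ± 0.13 SE), Ndufb6 (-0.20 ± 0.13 SE) and Ndufb8 (-0.26 ± 0.16 SE).

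Ndufa4 was first described as a complex I protein and is now counted with complex IV. It had the largest difference of the complex I names, -0.40 ± 0.16 SE or 1.32-fold lower in Sca-1+. Its levels were 5.16, 5.32, 5.16 and 4.78 in Sca-1- replicates 1 to 4, against 4.85, 4.87, 4.52 and 4.58 in Sca-1+ replicates 1 to 4. The groups overlapped through the low Sca-1- replicate 4, and Sca-1+ was lower on all 4 slides. The adjusted p was 0.476 in the unpaired limma fit and 0.0757 with the slide as a block, and none of 22 alternatives called it. Its relative Ndufa4l2, known as a hypoxia-induced form, was detected on 0 of the 8 arrays.

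Complex II has 4 subunits, all encoded in the nucleus, and 3 of them had negative differences. Sdhb, the iron-sulfur subunit, had levels of 6.86, 6.92, 6.53 and 6.61 in Sca-1- replicates 1 to 4 and of 6.49, 6.29, 6.37 and 6.42 in Sca-1+ replicates 1 to 4. The groups did not overlap, and the difference was -0.34 ± 0.13 SE, 1.27-fold lower in Sca-1+, with an adjusted p of 0.463. Sdhc and Sdhd, which anchor the complex in the membrane, both had a difference of -0.18, with standard errors of 0.12 and 0.14. Sdha, the flavoprotein that oxidises succinate, had 4.50, 4.10, 4.27 and 4.85 in Sca-1- and 4.36, 4.40, 4.37 and 4.88 in Sca-1+ samples. It was one of 6 members with a positive difference, 0.07 ± 0.20 SE, and both arrays of replicate 4 were its highest. The 95% interval of that difference, from -0.39 to 0.53, takes in the differences of the other 3 subunits, its sign turned in 3 of 22 alternatives, and the subunits were not tested against each other.

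In complex III all 8 members had negative differences, from -0.21 to -0.06. Uqcrfs1, the Rieske iron-sulfur protein, had the smallest p of the 8. It had levels of 4.97, 4.86, 4.80 and 4.78 in Sca-1- replicates 1 to 4 and of 4.62, 4.68, 4.58 and 4.68 in Sca-1+ replicates 1 to 4. The groups did not overlap and the spread within them was narrow, yet the difference was only -0.21 ± 0.11 SE (adjusted p = 0.710). The core proteins Uqcrc1 and Uqcrc2 had differences of -0.14 ± 0.12 SE and -0.15 ± 0.16 SE. Uqcrb, a small subunit, had 5.82, 6.20, 5.78 and 5.20 in Sca-1- and 5.73, 5.74, 5.65 and 5.04 in Sca-1+ samples. Replicate 4 was lower than the others in both groups, by more than the difference between the groups, which was -0.21 ± 0.25 SE.

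Complex IV held the member with the largest difference, Cox7a1, an isoform of subunit VIIa known from heart and skeletal muscle. Its levels were -0.93, -1.24, -1.46 and -2.30 in Sca-1- replicates 1 to 4, against -2.40, -2.56, -3.07 and -3.05 in Sca-1+ replicates 1 to 4. The groups did not overlap, although Sca-1- replicate 4 came close to Sca-1+ replicate 1. The probe, on chromosome 7 from 30970337 to 30970948 (mouse build mm9), was well above background on all 8 arrays. It was dim, with processed signals of 64.3 to 122 in Sca-1- and 23.9 to 47.9 in Sca-1+ samples. The difference was -1.28 ± 0.30 SE, 2.44-fold lower in Sca-1+.

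Whether Cox7a1 was called turned on the processing. Its adjusted p was 0.105 in the unpaired limma fit. It was 0.0112 with the slide as a block, 0.0465 after quantile normalization and 0.0470 on the authors' deposited values. Without both arrays of replicate 4 it was 0.0130 at a difference of -1.46, and without Sca-1- replicate 4 alone it was 0.0112 at -1.56. Over all alternatives it ranged from 0.00343 to 0.746, and 6 of 22 called the gene. With the normexp background correction, which draws dim probes together, the difference shrank to -0.51 and the adjusted p was 0.746. Its widely expressed counterpart Cox7a2 had levels of 5.71, 5.91, 5.60 and 4.85 in Sca-1- and of 5.63, 5.48, 5.38 and 4.69 in Sca-1+ samples, with a difference of -0.22 ± 0.28 SE. Levels of different probes cannot be set against each other, so the share of either isoform is not known from these arrays.

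**Figure D4:**
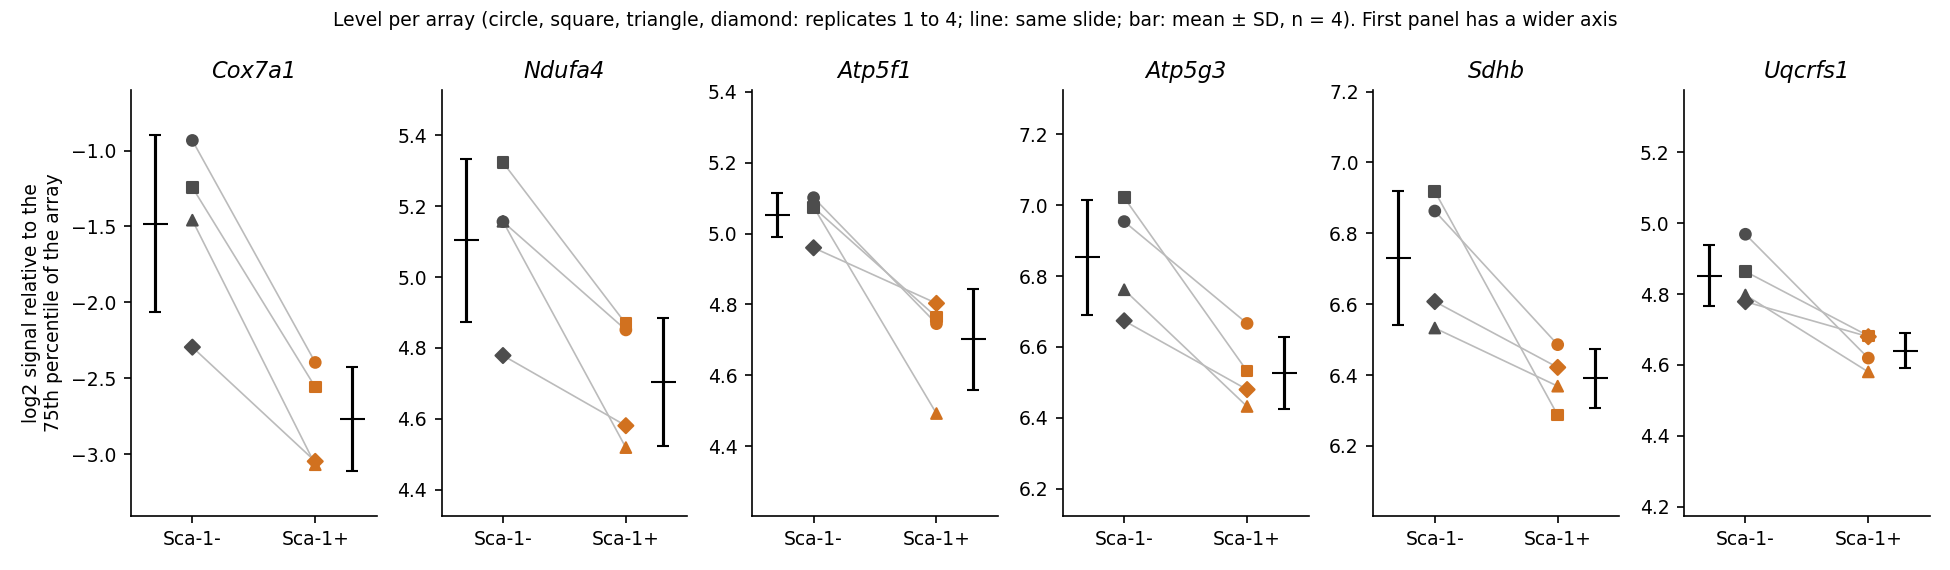
Level (log2 signal relative to the 75th percentile of the array) on each of the 8 arrays for 6 members, with the mean and SD of each group (n = 4) and lines joining arrays of a slide. Sca-1+ lies below Sca-1- on every slide in all 6 panels, and the groups overlap for Ndufa4; the Cox7a1 panel has a wider axis and the lowest levels, -0.93 to -3.07.

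The 10 common subunits of complex IV all had negative differences, with a median of -0.19. Cox5a, a matrix-side subunit, had levels of 7.24, 7.29, 6.99 and 6.69 in Sca-1- replicates 1 to 4 and of 6.87, 7.02, 6.60 and 6.53 in Sca-1+ replicates 1 to 4. Sca-1+ was lower on all 4 slides, and the groups overlapped, with a difference of -0.30 ± 0.18 SE and an adjusted p of 0.0869 with the slide as a block. Cox4i1, the subunit through which ATP is known to regulate the enzyme, had 7.86, 8.23, 7.84 and 7.45 in Sca-1- and 7.89, 7.76, 7.68 and 7.27 in Sca-1+ samples. Its difference of -0.19 ± 0.20 SE came from slides 2 to 4, with 0.03 on slide 1. Cox6c (-0.23 ± 0.24 SE), Cox6b1 (-0.21 ± 0.26 SE) and Cox8a (-0.13 ± 0.31 SE) had errors as large as their differences in the unpaired fit. With the slide as a block, their standard errors were 0.07, 0.13 and 0.11. Cox6c was lower in Sca-1+ on all 4 slides (adjusted p = 0.125 in the blocked fit), and Cox6b1 and Cox8a were lower on 3.

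The low levels of replicate 4 set much of the error in the unpaired fit. Cox8a had 8.32, 8.77, 8.41 and 7.54 in Sca-1- replicates 1 to 4, against 8.48, 8.33, 8.23 and 7.49 in Sca-1+ replicates 1 to 4, so both arrays of replicate 4 lay below all others. Cox4i2, a form known from lung and hypoxia, had a difference of 0.08 ± 0.22 SE. Cox6b2, known from testis, had -0.11 ± 0.34 SE. Cox7a2l, known as a supercomplex assembly factor, had 0.04 ± 0.14 SE. Cox4nb, which matches the rule by name only and is now called Emc8, a membrane protein complex subunit of the endoplasmic reticulum, had -0.25 ± 0.12 SE with groups that did not overlap.

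Complex V had the most negative median and 2 of the 5 members with an unadjusted p under 0.05. Atp5f1, subunit b of the peripheral stalk, had levels of 5.10, 5.07, 5.08 and 4.96 in Sca-1- replicates 1 to 4. In Sca-1+ replicates 1 to 4 it had 4.75, 4.76, 4.49 and 4.80. The groups did not overlap, and the difference was -0.35 ± 0.12 SE, 1.28-fold lower in Sca-1+, with an adjusted p of 0.348 in the unpaired limma fit and of 0.0391 with array weights, the lowest of 22 alternatives and the only one that called it; array weights called 7.59% of all tested genes. Atp5g3, which encodes subunit c of the rotor ring, had 6.95, 7.02, 6.76 and 6.67 in Sca-1- and 6.67, 6.53, 6.43 and 6.48 in Sca-1+ samples. These groups met at 6.67 without overlapping, and the difference was -0.33 ± 0.13 SE (adjusted p = 0.474).

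The 4 stalk members of complex V had a median difference of -0.27, the 3 c ring genes -0.23, the 3 other membrane members -0.22 and the 5 F1 members -0.18, and every one of these 15 differences was negative. Atp5b, the catalytic beta subunit, had levels of 7.52, 7.56, 7.15 and 7.39 in Sca-1- and of 7.17, 7.04, 6.96 and 7.31 in Sca-1+ samples, with a difference of -0.28 ± 0.14 SE. The groups overlapped, and Sca-1+ was lower on each slide. The alpha subunit gene Atp5a1 had -0.15 ± 0.12 SE, and Atp5o, of the stalk, -0.27 ± 0.15 SE. The positive differences of complex V, Atp5sl at 0.06 ± 0.11 SE and Atp5s at 0.01 ± 0.16 SE, belong to genes that match the rule by name but encode no subunit of the enzyme; they are now called Dmac2 and Dmac2l. Without them and Cox4nb, 73 of 77 genes were negative and the median was -0.15.

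Over all complexes, the groups did not overlap for 6 members, all lower in Sca-1+: Sdhb, Uqcrfs1, Cox4nb, Cox7a1, Atp5f1 and Atp5g3. That is 6 of 80 beside 5.11% of all tested genes, while 0 members were higher without overlap, beside 1.91%. Both counts are small. For 29 genes the arrays carried more than 1 probe, and 37 of the 43 further probes had the sign of the probe used. Ndufb5 had 2 probes of opposite sign, at 0.22 and 0.15 against -0.24. They were well above background on only 5 and 4 arrays. Atp5g1 had 1, at 0.21 against -0.11, as had Ndufv3 (0.17 against -0.04), Cox7c (0.01 against -0.19) and Cox7a2l (-0.03 against 0.04).

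The promoters of the members were searched for the motifs of factors known to drive respiratory genes. RefSeq promoter sequences (GRCm38.p6) were held for 69 of the 84 genes, and the 250 bases before each start were searched on both strands. The palindrome-like motif of nuclear respiratory factor 1, searched as GCGC, any base and TGCGC in a row, lay in 13 of 69 member promoters (18.8%), beside 4.23% of 27025 genes and 8.91% of those tested here. Its strict form with A as the free base, which it includes, lay in 4 (5.8%, beside 0.877% of all and 1.78% of tested genes). The ETS-type motif CCGGAAG, bound by GABPA, lay in 12 (17.4%, beside 7.83% of all and 15.4% of tested genes), and the YY1 motif, AAGATGG followed by CGG, in 2 (2.9%, beside 0.359% of all and 0.781% of tested genes). Members with the nuclear respiratory factor 1 motif had a median difference of -0.13 and those without it -0.15. For the strict form the order was the opposite, with -0.20 for the 4 members that held it and -0.14 for the others. For CCGGAAG both medians were -0.14, and for the YY1 motif they were -0.10 with and -0.14 without it. The 2 members with the YY1 motif were Atp5j, at -0.26, and Atp5sl, at 0.06, which matches the rule by name but encodes no subunit. None of these contrasts was tested.

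Members of complexes I and II with single and repeated matches are shown side by side. Sdha, with a difference of 0.07, held the nuclear respiratory factor 1 motif at 3 places, while Sdhd, at -0.18, held it once together with CCGGAAG. Ndufa8 and Ndufb6, at -0.21 and -0.20, each held a single match of a different motif. The windows below run 5′ to 3′ along the gene's strand, which is the minus strand for all 4 genes, and stop at the start of transcription at the latest. Capitals mark the match, read on either strand.
Sdha, chr13:74350304-74350363: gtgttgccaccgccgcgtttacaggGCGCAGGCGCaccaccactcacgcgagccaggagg
Sdha, chr13:74350261-74350320: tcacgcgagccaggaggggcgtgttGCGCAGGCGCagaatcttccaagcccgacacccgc
Sdha, chr13:74350241-74350275: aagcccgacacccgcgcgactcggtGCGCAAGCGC
Sdhd, chr9:50603894-50603953: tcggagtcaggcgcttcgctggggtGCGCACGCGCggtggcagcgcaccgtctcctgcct
Sdhd, chr9:50603864-50603920: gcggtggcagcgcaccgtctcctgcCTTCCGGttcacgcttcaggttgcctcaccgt
Ndufa8, chr2:36049339-36049393: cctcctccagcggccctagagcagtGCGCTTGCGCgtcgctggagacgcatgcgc
Ndufb6, chr4:40279622-40279671: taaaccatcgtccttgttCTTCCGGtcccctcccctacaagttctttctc
A match is a description of these letters and not a site shown to be bound. The gene Nrf1 itself had levels of 2.10, 2.06, 2.20 and 2.08 in Sca-1- and of 1.60, 1.70, 1.83 and 1.91 in Sca-1+ samples. Its groups did not overlap, and the difference was -0.35 ± 0.12 SE (adjusted p = 0.339).

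The 13 subunits encoded by the mitochondrial DNA, which assemble with these members, lay on the other side of 0. Their median difference was 0.08, with 11 of 13 positive and 0 called, and within slides 1 to 4 it was 0.13, 0.03, 0.06 and 0.10. Over all tested genes the median was 0.03, 44.7% had a negative difference and 1.75% were called. None of the 13 was lower on all 4 slides and 6 were higher on all 4, beside 18% and 18.3% of all tested genes. CYTB, the cytochrome b of complex III, had levels of 8.13, 8.18, 8.14 and 8.06 in Sca-1- and of 8.18, 8.21, 8.28 and 8.18 in Sca-1+ samples, with a difference of 0.08 ± 0.11 SE. COX1, the catalytic subunit of complex IV, had 10.23, 10.51, 10.36 and 9.25 in Sca-1- and 10.56, 10.51, 10.40 and 9.45 in Sca-1+ samples, and both arrays of replicate 4 were low.

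In the unpaired fit, the values of CYTB and COX1 differed by less than their errors, as did all other mitochondrially encoded genes except ND4, at 0.18 ± 0.13 SE. Over the alternatives tried, the median of the 13 ranged from 0.02 to 0.12, and between 7 and 13 were positive. The lowest value came without Sca-1- replicate 4. The difference between the nuclear and the mitochondrial sets was not tested. The mitochondrially encoded list was added after the values of the arrays had been seen.

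**Figure D5:**
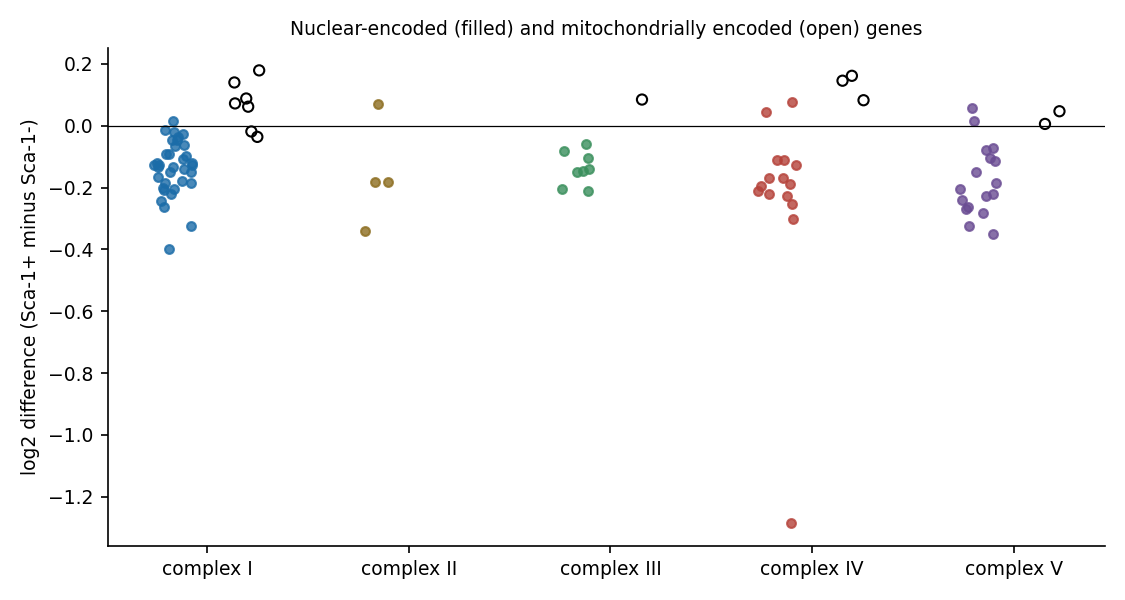
Log2 difference (Sca-1+ minus Sca-1-) of the tested nuclear-encoded members (filled, 1 of complex I not shown) and each of the 13 mitochondrially encoded subunits (open), by complex; horizontal scatter within a complex has no meaning. The open points lie between -0.04 and 0.18 and most filled points between -0.40 and 0.08, with Cox7a1 at -1.28.

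Nuclear subunits that the name rule misses lay on the side of the members. Ndufab1, the mitochondrial acyl carrier protein of complex I, had levels of 0.60, 0.86, 0.49 and 0.58 in Sca-1- and of 0.36, 0.12, -0.07 and 0.25 in Sca-1+ samples. The groups did not overlap, and the difference was -0.47 ± 0.15 SE (adjusted p = 0.258). Cyc1, the cytochrome c1 of complex III, had -0.17 ± 0.17 SE, and Atp5md, a small complex V subunit, -0.24 ± 0.25 SE.

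Other mitochondrial gene lists were described in the same way, and none had a member called in the unpaired fit. Of 40 tested assembly factors, 30 had negative differences, with a median of -0.05; the smallest p belonged to Uqcc1, a complex III assembly factor, at -0.21 ± 0.12 SE. Of 15 genes of electron carriers and coenzyme Q, 8 were negative, with a median of -0.04 whose sign single arrays turned: leaving out Sca-1- replicate 1 gave -0.12, leaving out Sca-1- replicate 4 gave 0.11, and leaving out Sca-1+ replicate 2 gave 0.01. Cycs, the gene of cytochrome c, had levels of 5.30, 5.51, 5.12 and 4.77 in Sca-1- replicates 1 to 4 and of 4.80, 4.86, 4.64 and 4.44 in Sca-1+ replicates 1 to 4. It was lower in Sca-1+ on each slide, by 0.50, 0.64, 0.48 and 0.32, and was called with the slide as a block (-0.49 ± 0.19 SE in the unpaired fit, adjusted p of 0.425 unpaired and 0.0329 blocked).

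Among 8 genes of nucleotide and phosphate carriers, channels and the ATPase inhibitor, 7 were negative, with a median of -0.12. Vdac3, a channel of the outer membrane, had levels of 4.89 to 5.09 in Sca-1- and of 4.51 to 4.66 in Sca-1+ samples. Its groups did not overlap, and it was called with the slide as a block (-0.40 ± 0.11 SE, adjusted p of 0.205 unpaired and 0.0463 blocked). Of 18 TCA cycle genes, 16 were negative with a median of -0.19; Fh1, the fumarase, had -0.31 ± 0.16 SE and Mdh2, a malate dehydrogenase, -0.25 ± 0.14 SE. Of 75 mitochondrial ribosomal protein genes, 66 were negative, with a median of -0.10. The nuclear-encoded genes of several mitochondrial processes thus lay on the same side as the members, each by a small amount.

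Of 21 tested regulators of mitochondrial biogenesis, 14 were negative, with a median of -0.08. Without Sca-1- replicate 4 alone, the negative count was 10 and the median 0.0087. Without both arrays of replicate 4, the count was 14 and the median -0.11. Over the alternatives, the median was positive only with Sca-1- replicate 4 left out and Sca-1+ replicate 4 kept. Tfam, the transcription factor of mitochondrial DNA, had -0.22 ± 0.13 SE and Polg2, a subunit of the mitochondrial DNA polymerase, -0.31 ± 0.13 SE. The 18 glycolysis genes were split, with 10 negative and a median of -0.03 that ranged from -0.07 to 0.02 over the alternatives. Hk2, a hexokinase, had levels of 0.14, -0.25, -0.21 and -0.40 in Sca-1- and of -0.68, -0.88, -1.12 and -0.95 in Sca-1+ samples. Ldhb, a lactate dehydrogenase subunit, had 2.13, 1.85, 1.61 and 2.66 in Sca-1- and 3.10, 2.80, 2.33 and 3.14 in Sca-1+ samples. Neither was called in the unpaired limma fit, and both were with the slide as a block. Hk2 was lower in Sca-1+, at -0.73 ± 0.16 SE in the unpaired fit (adjusted p of 0.0820 unpaired and 0.0139 blocked). Ldhb was higher, at 0.78 ± 0.27 SE (adjusted p of 0.338 unpaired and 0.0183 blocked).

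Other features of the samples moved with the groups, and their part in the small shift of the members was not tested. Besides the cell cycle genes, the summed linear level of 12 conventional DC and macrophage markers, in units of the 75th percentile, was 127 to 145 in Sca-1- and 115 to 124 in Sca-1+ samples, and Xcr1 and Mertk of that list were well above background on none. The brightest probes carry such a sum, and the list did not move one way: of its 8 tested genes 4 were negative and 4 positive, with a median of 0.04. None was called in the unpaired limma fit. With the slide as a block, Csf1r, a growth factor receptor, was called lower in Sca-1+ (4.57 against 3.38, adjusted p = 0.00621), as was Zbtb46, a transcription factor of conventional DC (-2.01 against -3.22, adjusted p = 0.0128), and Sirpa, a surface receptor, was called higher (3.63 against 4.18, adjusted p = 0.0411). Itgax, which encodes CD11c, had mean levels of 6.35 and 6.14.

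The pDC markers lay mostly on the other side of 0 from the members, with 11 of 14 positive and a median of 0.23. None was called in the unpaired limma fit. With the slide as a block, Ccr9, a chemokine receptor, was called higher in Sca-1+ at 0.55 ± 0.25 SE (adjusted p of 0.575 unpaired and 0.0486 blocked), and Tlr7, a sensor of RNA, at 0.58 ± 0.21 SE (adjusted p of 0.364 unpaired and 0.0450 blocked). The summed linear levels of the 14 markers overlapped, at 2150.5 to 2965 and 2488 to 3128, as they did for B cell (5.08 to 7.23 and 6.14 to 7.28), T and NK cell (12.7 to 22.0 and 12.1 to 20.4), granulocyte and basophil (4.67 to 34.0 and 3.54 to 34.1) and erythroid and megakaryocyte markers (0.279 to 0.921 and 0.293 to 0.354). Thy1, on the T and NK cell list, was lower in Sca-1+ at -1.80 ± 0.35 SE, with an adjusted p of 0.0472 in the unpaired limma fit and of 0.00123 with the slide as a block. No gene of that list was called after quantile normalization, with scaling on detected probes, on the authors' deposited values, without a filter on dim probes, or with every probe on its own. The same held when any single array among Sca-1- replicates 1 to 3 or Sca-1+ replicates 2 to 4 was left out. It also held without both arrays of replicate 1, 2 or 3. Ly6g, on the granulocyte list and a relative of Ly6a by family, had levels of -3.92, -3.63, -2.76 and -3.39 in Sca-1- and of -1.75, -1.22, -1.50 and -1.76 in Sca-1+ samples. Its probe was well above background on only 6 of the 8 arrays, so the size of the difference is uncertain. The adjusted p was 0.00911 in the unpaired limma fit, and no gene of the list was called with normexp. Among probes well above background on all 8 arrays, Ly6g was not tested. No gene of the list was called without both arrays of replicate 1, 2 or 3. Those settings called only 1, 2 and 30 of the 19252 tested genes, so they say little about Ly6g or Thy1.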

How the data were processed

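Gene expression was measured on 8 single-colour Agilent arrays, 4 per group. Per the file headers, the authors extracted spot intensity with Agilent Feature Extraction 10.7.3.1, which had corrected the background of the processed signal, and probe positions are those of mm9. The authors also deposited a table of log2 values, whose columns correlated at 0.998 to 1.00 with the scanner values of the matching array; its median was 3.9 and 22 values were missing. The scale is thus log2 and the direction that of the arrays, while the sources used here do not give the centring step.

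Control spots and 105 to 162 outlier spots per array were left out, and 0 spots were saturated. Levels are log2 processed intensity minus the 75th percentile of the array, over 55681 probes. Probe names came from the files of replicate 4, which carry a later annotation of the same probes; 8 of 127 member probes are named only there. Current symbols were found by accession for 26762 probes and by symbol for 4458, and the rest kept the file's name. Group differences were fitted in R 4.3.3 with limma 3.58.1 (two-sided, unpaired), with Benjamini-Hochberg adjustment over 19252 genes and a threshold of 0.05; the method was tested on simulated data.

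Arrays with the same number shared a slide, and their deviations from the group means correlated at 0.432 to 0.891, so the numbers were taken as pairs and the slide as a block was an alternative. Across numbers the correlations ran from -0.725 to 0.54. Other alternatives were quantile normalization, scaling on detected probes, normexp with an offset of 50, other filters and probe rules, array weights, the authors' values, other member sets, and leaving out each array or replicate.

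The members and lists were chosen with earlier results of these data known. Named are, per complex, the members with the smallest p, catalytic subunits, tissue isoforms with their counterparts, and the genes with the smallest p of each other list. Beyond these, genes outside the name rule, the members with positive differences, those with probes of opposite sign and those with the YY1 motif were picked after their values were seen. Promoters were searched with Python 3.11.15. Figures used matplotlib 3.10.9. Single values of 1 gene of complex I and 1 cell type marker are not reported here.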

Additional observations from a re-analysis of the deposited data

Results flagged for a closer look

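Among 80 groups of 4 samples checked for the named genes, 9 held a sample far from the other 3 by Dixon's ratio, where chance gives about 1 in 20. In 7 of them the sample was Sca-1+ replicate 4. It was above the others for Sdha (4.884 against 4.358 to 4.400), Ndufs1 (4.443 against 3.898 to 3.958) and Ndufv1 (5.528 against 5.092 to 5.162). It was below them for Uqcrb (5.044 against 5.653 to 5.744), Atp5o (4.145 against 4.435 to 4.460), Cox4i2 (-1.070 against -0.416 to -0.348) and Cox6b2 (-2.612 against -1.561 to -1.427). Sca-1- replicate 4 was above the others for Sdhd (5.183 against 4.960 to 4.989), and Sca-1- replicate 1 for Ndufa4l2 (-4.284 against -5.346 to -5.311), which was not well above background.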

How the results depend on the processing

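The count of called members was 0 and became 1 with the replicate block, with quantile normalization and on the authors' deposited values (Cox7a1 each time), and 2 with array weights (Cox7a1 and Atp5f1). Array weights called 1462 of the 19252 tested genes, 7.59% beside 1.75% in the unpaired fit, so 2 of 80 lies below the background there; quantile normalization called 1.72% and the authors' values 1.71% of them. Leaving out arrays gave 0 to 1, with 1 (Cox7a1) without Sca-1- replicate 4 and without both arrays of replicate 4. Those settings called 2.4% and 4.53% of all tested genes. Without both arrays of replicate 1 or of replicate 2, only 1 and 2 of the 19252 tested genes were called. A count of 0 members there says little about the members. The replicate block changed no other call among the members.

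The members' median was negative in all 23 alternatives, from -0.26 to -0.06, as were the medians of the complexes. Leaving out arrays moved complex III between -0.227 and -0.034, complex IV between -0.360 and -0.044 and complex V between -0.288 and -0.070; the first value of each came without Sca-1- replicate 4 and the second without Sca-1+ replicate 4. Ndufv1 turned positive with quantile normalization (0.014) and on the authors' values (0.013). Leaving out arrays turned the sign of Ndufv1 (-0.137 to 0.025), Sdha (-0.056 to 0.210), Cox4i2 (-0.040 to 0.249), Cox6b2 (-0.366 to 0.169) and Cox8a (-0.368 to 0.087); the cause was not tested. Where both arrays of a replicate are left out, 3 samples remain per group. Dim probes such as Cox7a1 are the least certain, since the background correction sets their scale.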
